A study of Homo sapiens with 15 samples.

Results

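LOC105371225 is a long non-coding RNA (lncRNA) gene of the RefSeq annotation, on the minus strand of chromosome 1 at 148290889 to 148317416 in GRCh38 (hg38). It was taken by its gene ID, as 1 gene of the 50037 in the count table, of which 21453 had any count. The gene was picked with its counts in these libraries known, so its levels by treatment and by experiment are a description. Small RNA was sequenced from 15 libraries of wild-type cells labelled HEK-293, a human embryonic kidney line, although the series title speaks of macrophages. All cells were incubated for 18 h: 5 libraries with very low-density lipoprotein (VLDL, titled pcDNA:VLDL, where the labels do not explain pcDNA), 5 with the lipid products that lipoprotein lipase (LPL) releases from VLDL (LPL:VLDL), and 5 with those products together with GKT136901 at 20 µM, which inhibits NOX1 and NOX4, enzymes that make reactive oxygen species. Each group has 1 library from each of experiments 2 to 6, so replicate 1 is experiment 2 and replicate 5 is experiment 6. The labels do not say whether an experiment was a separate culture, and the spread between libraries may be partly technical.

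A transfer RNA (tRNA) gene is transcribed by RNA polymerase III from promoter boxes that lie inside the gene. The precursor loses its 5′ leader to RNase P and its 3′ trailer to RNase Z, and fragments of tRNAs and of their precursors are a known class of small RNA. A lncRNA is instead a long transcript, of which a small RNA library can hold only pieces. Reads counted on a lncRNA gene in such a library are therefore fragments that map to its exons, on either strand, because the counting did not use strand.

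The gene has 4 RefSeq transcript models and 4 separate exon blocks with 17676 bases in all. Block 1, at 148301602 to 148317416, holds 15815 bases (89.5% of the exon length) and runs from the annotated start. Blocks 2, 3 and 4 hold 1012, 433 and 416 bases. In the GENCODE 29 annotation, also on GRCh38, exons of LINC01138 on the same strand cover 647 bases of block 2, 223 of block 3 and 416 of block 4, and no GENCODE exon touches block 1 (0 bases). The count table does not say where in the 17676 bases the reads lie.

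**Figure D1:**
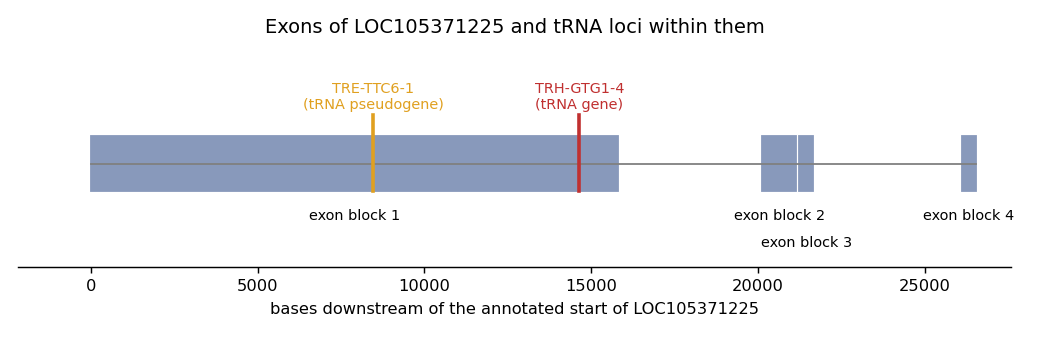
Map of LOC105371225, with distance in bases downstream of its annotated start on the x axis. Boxes are the 4 exon blocks and coloured ticks are tRNA loci, both in block 1: the pseudogene TRE-TTC6-1 from base 8423 and the tRNA gene TRH-GTG1-4 from base 14611.

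Block 1 holds 2 annotated tRNA loci, 1 of them a gene. The gene TRH-GTG1-4, which encodes a histidine tRNA with anticodon GTG, lies at 148302734 to 148302805 on the same strand, 14611 bases downstream of the start, and all of its 72 bases are exonic. A read that touches both genes was not counted for either, and TRH-GTG1-4 had 0 counts in every library. The other locus is TRE-TTC6-1, which RefSeq classes as a pseudogene of a glutamate tRNA, at 148308922 to 148308993 and 8423 bases downstream of the start. None of the 74 tRNA pseudogenes of RefSeq has a row in the count table (0 of 74), so a uniquely mapped read inside TRE-TTC6-1 would be counted on LOC105371225. LINC02806, a lncRNA of the opposite strand, overlaps all 416 bases of block 4. Together these overlaps leave 17188 of the 17676 exon bases (97.2%) where a read counts for LOC105371225 alone.

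The window around the annotated start, from 250 bases before it to 50 after it (chr1:148317367-148317666, minus strand, RefSeq, GRCh38.p14), is shown 5′ to 3′ because it is where exon block 1, with most of the exon bases, begins. Capitals mark the bases from the annotated start on.
LOC105371225 start window: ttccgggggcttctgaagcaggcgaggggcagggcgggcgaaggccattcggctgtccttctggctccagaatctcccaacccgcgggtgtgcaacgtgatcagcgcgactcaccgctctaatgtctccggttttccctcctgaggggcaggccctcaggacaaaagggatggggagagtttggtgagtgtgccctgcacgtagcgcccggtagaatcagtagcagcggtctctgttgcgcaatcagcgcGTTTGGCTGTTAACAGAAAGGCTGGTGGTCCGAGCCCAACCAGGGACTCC
GGTTCGA, the core of the B box promoter element of many tRNA genes, was searched on both strands and is not in the window of LOC105371225, whereas 0.875% of 27305 windows of the same length hold it. Only exact matches were searched. The bases after the annotated start hold GGTCCGA, which differs from that motif at 1 base. Its share over all windows was not computed, and whether the window holds a tRNA-like element was not tested. The window is 61.7% G and C, against a median of 58.3%.

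The sequences of TRH-GTG1-4 and TRE-TTC6-1 were not available here. Genes of the same families are shown in their place, with the anticodon in capitals at bases 34 to 36. RefSeq classes TRE-TTC3-1 as a tRNA gene, so it need not resemble the pseudogene TRE-TTC6-1. TRH-GTG1-7, at chr15:45198606-45198677 on the minus strand, is identical in all 72 bases to TRH-GTG1-8 (0 mismatches), and TRE-TTC3-1 lies on the plus strand at chr1:16872583-16872654. Both were read from GENCODE 29 transcripts.
TRH-GTG1-7: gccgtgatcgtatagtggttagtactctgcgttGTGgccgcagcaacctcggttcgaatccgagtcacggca
TRE-TTC3-1: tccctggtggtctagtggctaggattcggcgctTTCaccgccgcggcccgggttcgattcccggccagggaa
Reads with several alignments were not counted, yet TRH-GTG1-7 and TRH-GTG1-8 had 1041 and 787 counts, and the table does not say which bases those reads cover.

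Depth was 5076917 counts in GKT136901 replicate 2 and 8360737 to 9757123 counts in the other 14 libraries. The libraries went against their label in part: of 9 genes known from HEK-293 cells, LIN28B, NEFM, INA and TUBB2B had no count, whereas 17 of 18 myeloid genes had one (AIF1 had none). In CPM, which are counts per 1000000 counts of a library, the myeloid genes summed to 37.2 to 109 in the VLDL group, to 27.5 to 126 in the LPL:VLDL group and to 28.1 to 82.2 in the GKT136901 group. They were 82.2 to 126 CPM in experiment 2 and 27.5 to 54.6 CPM in experiments 3 to 6. The HEK-293 list summed to 0.929 to 5.76, 0.94 to 3.24 and 0.985 to 2.64 CPM in the order of the 3 groups. Of 5 blood cell genes only PF4 had any count (1 in all), and of 5 hepatocyte genes only APOA1 (7 in all).

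LOC105371225 was among the most counted genes of the table. It held 252361 counts over the 15 libraries, 0.19% of all counts, and ranked 55 of 50037 genes. Within single libraries its rank was between 45 and 71. It held 30.9% of the 815572 counts on lncRNA genes, from 21% in the lowest library to 46.9% in the highest. The 5401 lncRNA genes with any count had a median of 5 counts.

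Among 19398 lncRNA genes it ranked the second both by CPM of total counts and by CPM per kilobase (kb) of exon. NR2F2-AS1, the antisense neighbour of the transcription factor gene NR2F2, stood above it at 1878 CPM per kb, and LOC105371225 had 109.5 CPM per kb. The next were LOC105373324 at 12.3, LOC105376229 at 8.22 and SNHG5, a snoRNA host gene, at 7.84 CPM per kb. NEAT1, the scaffold RNA of nuclear paraspeckles, has 22743 exon bases and had 0.945 CPM per kb. The per-kb value of LOC105371225 spreads its reads over 17676 bases, where the median lncRNA gene has 1263.

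**Figure D2:**
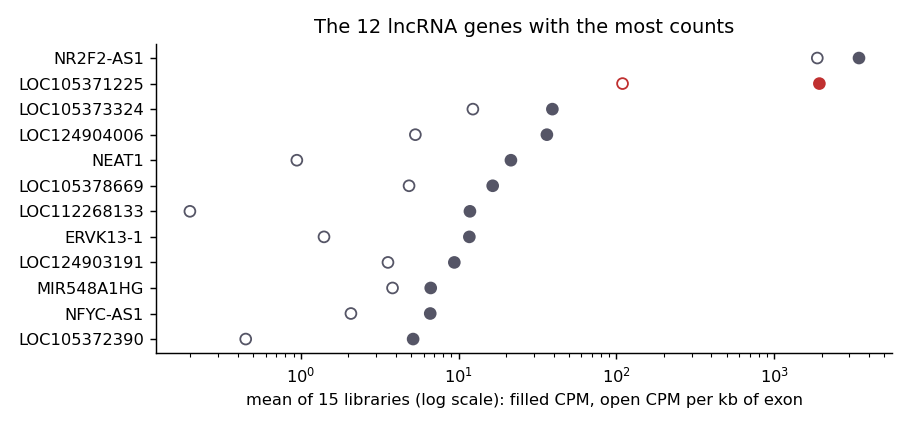
The 12 lncRNA genes with the most counts, with the mean of 15 libraries on a log axis as CPM of total counts (filled) and CPM per kb of exon (open). LOC105371225 (red) lies below NR2F2-AS1 and above LOC105373324 on both scales, at 109.5 CPM per kb against 12.3.

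Neighbouring genes held few counts. Within 10 kb of the gene the table lists LINC02806 with 5 counts over all libraries, the histidine tRNA gene TRH-GTG1-3 with 2, and TRH-GTG1-4 and LINC01731 with 0. Reads on bases shared with LOC105371225 were not counted for either gene. The 0 of TRH-GTG1-4, whose bases are all shared, was therefore fixed by the counting. The 9 histidine GTG tRNA genes together had 4718 counts, led by TRH-GTG1-9 (2286), TRH-GTG1-7 (1041), TRH-GTG1-8 (787), TRH-GTG1-1 (440) and TRH-GTG1-5 (138). Glutamate TTC tRNA genes, the family of TRE-TTC6-1, summed to 8771 counts. These counts are on the rows of the tRNA genes and are not among the 252361 counts on LOC105371225, which exceed either sum. Both sums leave out reads with several alignments, so the comparison does not show where the reads of LOC105371225 come from.

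Other genes with a tRNA locus in an exon had lower counts. A read that touches such an exon and a tRNA gene with its own row was not counted for either. Low counts of these genes therefore do not show how many tRNA reads their exons yield. RefSeq exons of 29 genes overlap a tRNA gene or tRNA pseudogene, and their median total count was 8, with 11 of the 29 at 0. LOC105371225 was the highest of the 29. It was followed by MIR4521 (5755 counts), a miRNA gene that shares 3 bases with TRS-GCT4-3, TRIM55 (1401), LOC124903191 (1254) and BCAR3 (212). It was also the only 1 of the 29 that holds both a tRNA gene and a tRNA pseudogene. Exons of 2 of the 29 hold a tRNA pseudogene, which has no row of its own. The other of these, LINC02591, had 0 counts.

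By treatment, levels of LOC105371225 were lowest with VLDL and highest with GKT136901 inside each experiment. Levels are CPM scaled with TMM factors, which set the libraries to a common scale. With VLDL the values in experiments 2 to 6 were 2294, 1613, 1628, 1136 and 1194 CPM. With LPL:VLDL they were 2530, 1882, 2032, 1394 and 1580 CPM. With GKT136901 they were 2726, 2464, 2359, 1714 and 1678 CPM. The ranges of the groups overlap, because the experiments differ by more than the treatments, but inside each of the 5 experiments the order was VLDL, then LPL:VLDL, then GKT136901. In these bulk samples more cells that carry an RNA and more RNA per cell cannot be told apart.

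**Figure D3:**
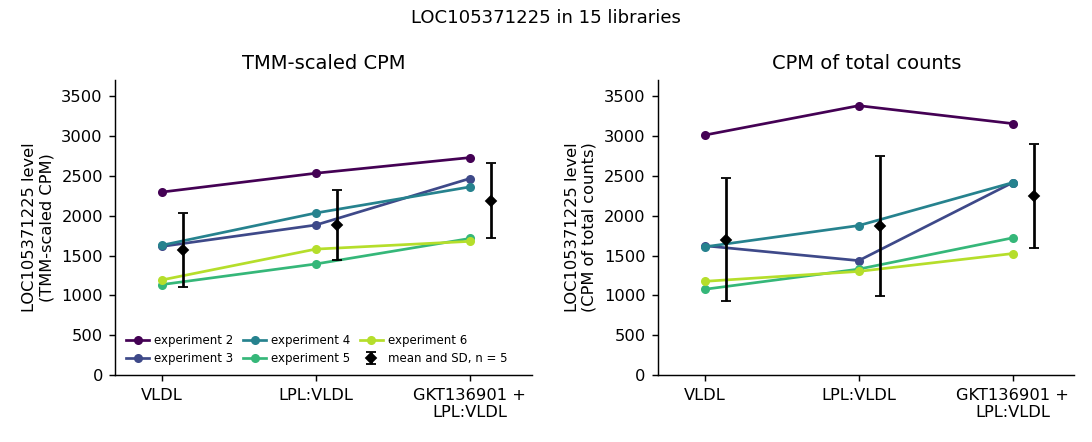
Level of LOC105371225 in each library by treatment, as TMM-scaled CPM (left) and as CPM of total counts (right), with a line per experiment and black diamonds for the mean and SD of 5 libraries. On the TMM scale each line goes up at both steps (5 of 5 experiments), and on total counts 3 of 5 do.

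Of the 4099 genes tested, LOC105371225 was the 1 gene with this order in all 5 experiments (0.0244% of genes). MMP9 was the 1 gene with the reverse order, also 0.0244%. LOC105371225 was picked with these counts known, so its order is a description and no independent support. In experiment 5 the order of MMP9 rests on about 1 read each with VLDL and LPL:VLDL. With size factors of DESeq2 the order also held in 5 of 5 experiments. With CPM of total counts it held in 3 of 5: in experiment 3 LPL:VLDL had 1436 CPM against 1623 CPM with VLDL, and in experiment 2 GKT136901 had 3151 CPM against 3375 CPM with LPL:VLDL. The TMM factors of the libraries concerned were 0.765 (LPL:VLDL, experiment 3), 1.01 (VLDL, experiment 3), 1.16 (GKT136901, experiment 2) and 1.34 (LPL:VLDL, experiment 2).

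What the products of LPL change is addressed by LPL:VLDL against VLDL. Levels of LOC105371225 averaged 1573 CPM ± 463.3 in the VLDL group (SD, n = 5), and the LPL:VLDL group averaged 1884 CPM ± 439.1 (SD, n = 5). The log2 difference was 0.26 (SE 0.21) without the experiment in the model and 0.28 (SE 0.10) with it as a block. Without the block it was 0.131 without LPL:VLDL replicate 1, 0.161 without VLDL replicate 4, 0.153 without VLDL replicate 5, 0.416 without VLDL replicate 1, and 0.134 with library-size scaling. Inside experiments 2 to 6 the log2 differences were 0.14, 0.22, 0.32, 0.30 and 0.40 on the TMM scale. It was higher in 5 of 5 experiments, as were 3.44% of all genes tested, and in 4 of 5 by total counts.

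GKT136901 against LPL:VLDL addresses what the inhibitor changes. The mean level of LOC105371225 was 2188 CPM ± 469 with the inhibitor, where LPL:VLDL alone gave 1884 CPM ± 439.1 (SD, n = 5). The log2 difference was 0.22 (SE 0.21) without the block and 0.22 (SE 0.10) with it. Without the block it was 0.137 without GKT136901 replicate 1, 0.114 without LPL:VLDL replicate 4 and 0.337 without LPL:VLDL replicate 1. Inside experiments 2 to 6 the log2 differences were 0.11, 0.39, 0.21, 0.30 and 0.086. It was higher in 5 of 5 experiments, as were 3.2% of all genes, and in 4 of 5 by total counts. Experiment 3 gave the highest of the 5, and its GKT136901 library is the one with 5076917 counts.

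GKT136901 against VLDL gave the greatest difference of the 3 comparisons, and it shares libraries with both others. The means were 2188 CPM ± 469 and 1573 CPM ± 463.3 (SD, n = 5). The log2 difference was 0.48 (SE 0.22) without the block and 0.50 (SE 0.10) with it, a fold of 1.39 and 1.41. Inside experiments 2 to 6 the log2 differences were 0.25, 0.61, 0.53, 0.59 and 0.49, with experiment 2 the lowest. It was higher in 5 of 5 experiments on the TMM scale and by total counts, as were 3.66% of all genes on the TMM scale.

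**Figure D4:**
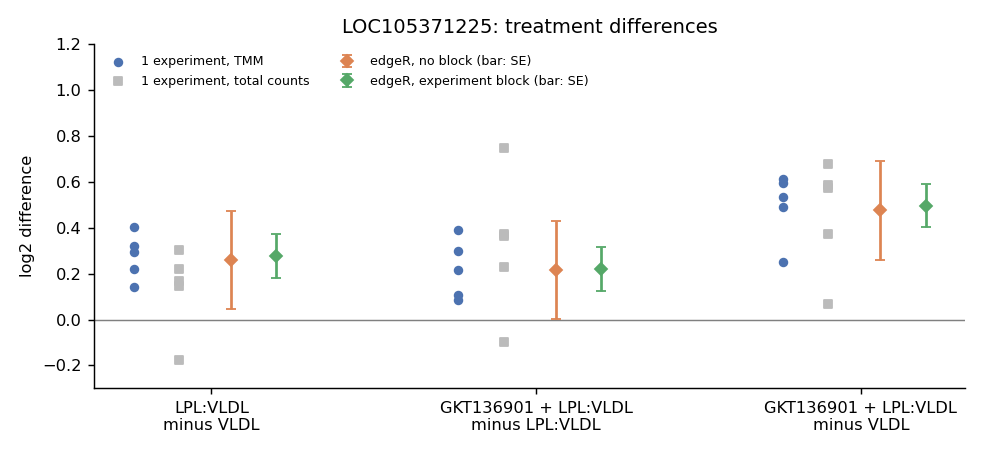
Log2 differences of LOC105371225 for the 3 comparisons, per experiment (circles TMM, squares total counts) and from edgeR without and with the experiment as a block (diamonds, bars are SE). The circles lie above 0 in all 15 cases, the squares in 13, and the SE is 0.21 to 0.22 without the block and 0.10 with it.

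The gene was not called in any comparison by the edgeR quasi-likelihood test, at an adjusted p under 0.05 over 4099 genes. Without the block 0% of genes were called in each comparison, and the adjusted p of LOC105371225 was 0.999, 1 and 0.999 in the order above. With the block the edgeR test called 0.0244% (1 gene), 0% and 0% of genes, and the adjusted p was 0.988, 1 and 0.0579. In the blocked fit of GKT136901 against VLDL it had rank 1 of 4099 by p. With the experiment as a term DESeq2 and limma voom did call it in that comparison (adjusted p = 0.000996 and 0.00317), among 2 and 3 genes called. At an unadjusted p under 0.05 edgeR had 1.88%, 2.12% and 2.22% of all genes without the block and 4.2%, 3.68% and 4.32% with it. The p-values of LOC105371225 place it among all genes, and since the gene was picked with these counts known they are no independent support. Leaving out 1 experiment from the blocked edgeR fit gave log2 differences of 0.46 to 0.532 for GKT136901 against VLDL and adjusted p of 0.0948 to 0.997.

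Differences between experiments were larger than those between treatments. The mean of the 3 libraries was 2516 CPM ± 216.1 in experiment 2, 1986 CPM ± 434.7 in experiment 3, 2006 CPM ± 366.1 in experiment 4, 1415 CPM ± 289.3 in experiment 5 and 1484 CPM ± 255.7 in experiment 6 (SD, n = 3, over 3 treatments). Experiment 2 stood at the top, experiments 3 and 4 lay within 1 SD of each other, and so did experiments 5 and 6. Experiment accounted for 68.1% of the variance of log2 CPM, treatment for 28.9% and the rest for 2.97%. The medians over all genes tested were 37.9%, 9.16% and 47.3%.

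The gene was set against the summed counts of nuclear tRNA genes, 645 rows with 1032381 counts in all. The sum does not hold the counts of LOC105371225, so the values are ratios of separate counts, written as percentages. In experiments 3 to 6 the ratio was 15.6% to 17.7% with VLDL, 17.1% to 19.8% with LPL:VLDL and 21.5% to 24.1% with GKT136901. In those 4 experiments the GKT136901 libraries lay above all others, while VLDL and LPL:VLDL overlapped. In experiment 2 the ratios were 61.3%, 65% and 67.1% in the same order. The tRNA sum was 4698 to 5190 CPM in experiment 2 and 6574 to 11210 CPM in the other 12 libraries. The summed marker genes were also high in experiment 2, the myeloid list at 82.2 to 126 CPM and the HEK-293 list at 2.03 to 5.76 CPM, where experiments 3 to 6 had 27.5 to 54.6 and 0.929 to 2.64 CPM. Their part in these values was not tested.

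**Figure D5:**
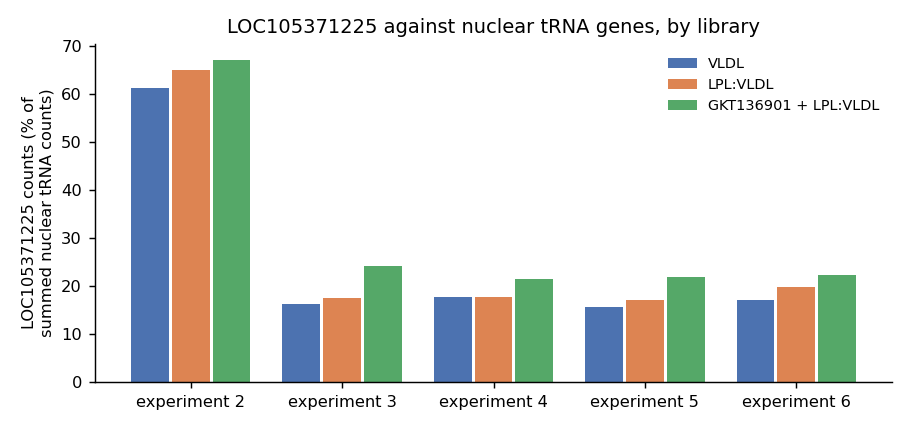
Ratio of the counts of LOC105371225 to the summed nuclear tRNA counts, in percent, with 1 bar per library grouped by experiment and coloured by treatment. Experiment 2 stands at 61.3% to 67.1%, and in experiments 3 to 6 the GKT136901 bars (21.5% to 24.1%) are above the others (15.6% to 19.8%).

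Over all 5 experiments this ratio averaged 25.6% ± 20 in the VLDL group, 27.4% ± 21 in the LPL:VLDL group and 31.4% ± 20 in the GKT136901 group (SD, n = 5). Inside experiments the ratio was higher with LPL:VLDL than with VLDL in 5 of 5, with GKT136901 than with LPL:VLDL in 5 of 5, and with GKT136901 than with VLDL in 5 of 5. On the log2 scale the differences were 0.11, 0.26 and 0.37. An exact permutation test of 5 against 5 libraries (two-sided, experiment left out of account) gave p = 0.476, 0.452 and 0.452, an adjusted p of 0.476 over the 3 comparisons each, where the smallest p is 0.00794. Without experiment 2 the adjusted exact p was 0.0429 for GKT136901 against LPL:VLDL and for GKT136901 against VLDL, with log2 differences of 0.316 and 0.433. Before adjustment both are the smallest exact p that 4 against 4 libraries allow, because the GKT136901 libraries lay above all others there. Leaving out any other experiment gave an adjusted exact p of 0.457 to 0.514 in these comparisons. Like the levels, these ratios rest on the counts with which the gene was picked.

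Nuclear tRNA genes themselves were not called in any comparison, where edgeR called 0% of all genes without the block and at most 0.0244% with it. Of 163 tested, 116 were above 0 with LPL:VLDL against VLDL, at a median log2 difference of 0.18, and 2077 of all 4099 genes were above 0, at a median of 0.0097. For GKT136901 against LPL:VLDL 69 of 163 were above 0 (median -0.036), where 1963 of all 4099 genes were (median -0.019). For GKT136901 against VLDL 116 of 163 were above 0 (median 0.094), where 2032 of all 4099 genes were (median -0.0042). By edgeR without the block 4, 1 and 1 of them had an unadjusted p under 0.05, against 1.88%, 2.12% and 2.22% of all genes. With the block 21, 4 and 6 did, against 4.2%, 3.68% and 4.32% of all genes, and 0 were called. Higher in 5 of 5 experiments were 20 (12.3%), 6 (3.68%) and 15 (9.2%) of the 163. The shares of all genes tested were 3.44%, 3.2% and 3.66%, so the second comparison was near the share of all genes.

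The other RNA polymerase III transcripts had 8 tested members of 21, with 0 called by edgeR in each comparison. Of all genes tested, 0% were called without the block and 0.0244%, 0% and 0% with it. RNY1, a Y RNA bound by the Ro protein, averaged 10420 CPM ± 6451 in the VLDL group, 10360 ± 6760 in the LPL:VLDL group and 10690 ± 8338 in the GKT136901 group (SD, n = 5). RMRP, the RNA of RNase MRP, averaged 360.9 ± 61.8, 393 ± 76.4 and 380.7 ± 46.1 CPM. It exceeded its VLDL level in 5 of 5 experiments under both other treatments. It was the 1 of the 8 to do so (12.5%), where 3.44% and 3.66% of all genes tested did. RN7SK, which holds back transcription elongation, had 201 CPM ± 43.4, 189 CPM ± 35.5 and 177 CPM ± 35.1. It was higher in 2 of 5 experiments in each of the 3 comparisons. RNY1 was higher in 2, 2 and 1 of 5 in the order above. The list's median log2 differences were 0.019, -0.064 and 0.039 for LPL:VLDL against VLDL, GKT136901 against LPL:VLDL and GKT136901 against VLDL.

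Messenger RNA fragments of the machinery were few. Of 24 genes of RNA polymerase III and its factors 23 had a count and 5 were tested, with 0 called: GTF3C4, a subunit of the factor TFIIIC that binds tRNA promoters, averaged 3.6 ± 1.25 CPM in the VLDL group, 2.16 ± 1.12 in the LPL:VLDL group and 3.53 ± 0.862 in the GKT136901 group (SD, n = 5). Of 29 genes of tRNA end processing and fragments 23 had a count and 6 were tested, with 0 called. Among all genes tested edgeR called 0% without the block and at most 0.0244% with it. AGO2, the Argonaute that carries small RNAs, had 10.9 CPM ± 2.89, 10.9 CPM ± 2.87 and 11 CPM ± 1.98. XPOT, the exporter of tRNAs, had 1.12 CPM ± 0.8, 1.49 CPM ± 0.832 and 1.68 CPM ± 0.794, and DICER1, the RNase that cuts miRNA precursors, had 0.636 CPM ± 0.196, 0.83 CPM ± 0.426 and 1.68 CPM ± 0.606. Both were higher with GKT136901 than with VLDL in 5 of 5 experiments, as were 3.66% of all genes tested. TRNT1 was higher in 1 of 5, AGO1 in 1, NSUN2 in 2 and AGO2 in 3. The median log2 difference of the 6 genes in that comparison was -0.023.

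Other lncRNA genes served as the second reference set. Of 124 tested beside LOC105371225, 76, 55 and 69 were above 0 in the 3 comparisons in the order above, at medians of 0.17, -0.049 and 0.078. Of all 4099 genes, 2077, 1963 and 2032 were above 0, at medians of 0.0097, -0.019 and -0.0042. None of the 124 was called by edgeR (0 of 124 with or without the block), with 4, 2 and 2 at an unadjusted p under 0.05 without the block. The shares of all genes under that unadjusted p were 1.88%, 2.12% and 2.22%. Called by edgeR were 0% of all genes without the block and at most 0.0244% with it. Higher in 5 of 5 experiments were 4 (3.23%), 1 (0.806%) and 4 (3.23%), against 3.44%, 3.2% and 3.66% of all genes tested. The comparisons with VLDL were thus near the share of all genes. GKT136901 against LPL:VLDL was below it, on 1 gene. NR2F2-AS1, the lncRNA with the higher count, averaged 2957 ± 1441 CPM in the VLDL group, 3760 ± 1932 in the LPL:VLDL group and 3619 ± 2222 in the GKT136901 group (SD, n = 5). Its level under GKT136901 exceeded that under LPL:VLDL in 2 of 5 experiments, and it was not called.

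The genes whose pattern over the 15 libraries was most like that of LOC105371225 included 3 mitochondrial genes among the first 5. By Pearson's r of log2 CPM they were TRNF, the mitochondrial tRNA of phenylalanine (r = 0.871), CYTB, which encodes cytochrome b (0.859), TRNY, the mitochondrial tRNA of tyrosine (0.849), MIR100 (0.835) and MIR212 (0.831). Spearman's rho was 0.836, 0.796, 0.821, 0.889 and 0.754. The 15 points share experiments and scaling factors, and these are the 5 highest among all genes tested, so the coefficients are a description. Once the means of experiment and treatment were removed, r was 0.493, 0.215, 0.0927, 0.14 and 0.21.

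TRNF had 1435, 886, 847, 790 and 515 CPM with VLDL in experiments 2 to 6. It had 1420, 1449, 1536, 825 and 687 CPM with LPL:VLDL, and 1602, 1728, 1364, 989 and 679.9 CPM with GKT136901. It was higher with GKT136901 than with VLDL in 5 of 5 experiments, at a blocked log2 difference of 0.50 (SE 0.12), and lower in 2 of 5 against LPL:VLDL, and it was not called (edgeR adjusted p = 0.238 with the block). Over all 3 treatments MIR100 ran from 64.3 to 93.1 CPM in experiments 5 and 6 and from 3027 to 3668 CPM in experiment 2, and experiment accounted for 99.7% of its variance. MIR212 shared the step from VLDL to LPL:VLDL, higher in 4 of 5 experiments, but was higher with GKT136901 than with LPL:VLDL in 1 of 5.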

How the data were processed

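The authors deposited a table of read counts, not normalized, for small RNA of 15 libraries and every RefSeq gene. Per the file headers, featureCounts 2.0.6 counted reads over exons grouped by gene with the RefSeq annotation of GRCh38.p14, and the command sets no strand and keeps neither reads with several alignments nor reads on more than 1 gene. Per the submitters' processing notes, the tools included STAR 2.7.11b, fastp 0.24.0, DESeq2 1.46, edgeR 4.4.2 and R 4.4.2, and the build was hg38. Exon lengths are those of the deposited table.

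Genes were kept by edgeR's filterByExpr (minimum count 10, minimum total count 15; 4099 genes with 99.7% of counts), scaled by TMM and tested with the quasi-likelihood method of edgeR 4.0.16 under R 4.3.3, two-sided, all 3 groups in 1 model, with Benjamini-Hochberg adjustment over all genes tested. The procedure was tested on simulated data. Those data held no effect of experiment, so they do not test the choice between the fits with and without the block. CPM are TMM-scaled unless total counts are named. The correlations used a prior count of 2 and the ratio to tRNA counts a pseudocount of 0.5. All 15 columns were matched to samples.

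Per the labels, libraries with the same number come from 1 experiment, so the numbers pair them. Once group means were removed, r was 0.066 to 0.38 (median 0.11) over 15 pairs from 1 experiment. Over 60 pairs from unlike experiments and groups it was -0.15 to 0.15 (median -0.07), so the ranges overlap. No library was a copy of another of its group (chi-square over its degrees of freedom 8.59 to 167 in each pair). The gene, the gene lists and the tests were chosen with earlier results of these data known. Named genes were LOC105371225, tRNA genes in its exons, genes within 10 kb, tRNA genes of the same anticodon, the 5 most correlated genes, lncRNAs next to it in rank, other genes with a tRNA locus in an exon, and listed genes of RNA polymerase III, of tRNA processing and among its transcripts. TRE-TTC6-1 and MMP9 fall outside that rule and were named after their positions or values were seen, and so were the myeloid and HEK-293 list members at 0. Alternatives were other scalings, filters and tools, the experiment as a block, and libraries or experiments left out.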

Additional observations from a re-analysis of the deposited data

Results flagged for a closer look

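The ratio of the count of LOC105371225 to the summed nuclear tRNA counts, which do not hold it, stood far from the other 4 libraries of its group in each replicate 1 (experiment 2): at 61.31% in the VLDL group, 65.04% in the LPL:VLDL group and 67.08% in the GKT136901 group. The 3 libraries are from 1 experiment. The total count of GKT136901 replicate 2, 5076917 counts, stood far below the other 4 libraries of its group. Chance alone sets about 1 in 20 groups of 5 apart in this way. TMM-scaled CPM of LOC105371225 itself held no such library in any group.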

How the results depend on the processing

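The log2 differences of LOC105371225 kept their sign in all alternatives run. Over the other alternatives they ran from 0.134 to 0.276 for LPL:VLDL against VLDL, from 0.192 to 0.325 for GKT136901 against LPL:VLDL and from 0.402 to 0.498 for GKT136901 against VLDL. Leaving out 1 library gave 0.131 to 0.416, 0.114 to 0.337 and 0.363 to 0.63, and leaving out 1 experiment in the fit with the replicate block gave 0.234 to 0.277, 0.183 to 0.256 and 0.46 to 0.532. The highest of these without the block, 0.416 and 0.63, came without VLDL replicate 1, and the lowest of the first comparison, 0.131, without LPL:VLDL replicate 1, both of experiment 2. The call of GKT136901 against VLDL appeared with the block in DESeq2 (log2 difference 0.498, adjusted p = 0.000996) and limma voom (0.486, adjusted p = 0.00317), both chosen after seeing the data, and not in edgeR with the block (0.496, adjusted p = 0.0579). In the edgeR fit with the block and library-size scaling the adjusted p was 0.266; the cause was not tested.

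Genes called were 0 in each comparison without the block. For LPL:VLDL against VLDL the block gave 1 gene, 0 to 2 genes with 1 experiment left out, 1 with no filter, 5 with DESeq2 and 4 with limma voom. For GKT136901 against VLDL the block gave 0 with edgeR, 2 with DESeq2 and 3 with limma voom. The log2 difference in the ratio to nuclear tRNA counts ran from 0.0847 to 0.139, from 0.212 to 0.316 and from 0.321 to 0.433 with 1 experiment left out. With all counts as the denominator it was 0.132, 0.323 and 0.455. Sign flips within the experiments, which keep the pairing, gave an exact adjusted p of 0.0625 in each comparison, the smallest that 5 pairs allow. The 9 histidine GTG tRNA genes and the machinery mRNAs held few counts, whereas the lowest library of LOC105371225 had 9912 counts. The rows of the tRNA genes also leave out reads with several alignments and reads on more than 1 gene.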

Other observations

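MMP9, a secreted protease of macrophages and other cells, was the 1 tested gene whose order over the treatments was the reverse of that of LOC105371225 in all 5 experiments. It was picked after its values were seen. MMP9 had 11.2, 3.36, 4.7, 0.113 and 2.17 CPM with VLDL in experiments 2 to 6, 10.8, 2.22, 1.97, 0.109 and 1.21 CPM with LPL:VLDL, and 8.69, 1.21, 1.63, 0 and 0.343 CPM with GKT136901. Its blocked log2 difference of GKT136901 against VLDL was -1.35 (SE 0.41), and it was not called (edgeR adjusted p = 0.997). Experiment accounted for 90.2% of its variance. In experiment 5 the 0.113 CPM with VLDL and the 0.109 CPM with LPL:VLDL each rest on about 1 read. That step is a tie in counts ordered only by the scaling, and the order in 5 of 5 experiments depends on it.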
